A study of Mus musculus with 5 samples.

Results

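The S100 genes encode small calcium-binding proteins. The 9 genes described here, S100a1, S100a3, S100a4, S100a6, S100a10, S100a11, S100a13, S100a16 and S100b, were selected by symbol from the 54699 genes of a deposited expression table, with their levels in these libraries already known, so all values below are a description and no test is attached to them. The 5 libraries, 1 per group, were made from RNA of B16F10 cells, a pigmented mouse melanoma line, and all 5 groups had received a lentivirus. One group expressed Myod1, which switches on skeletal muscle genes, and another Pparg, the nuclear receptor that drives fat cell formation. Both were collected on day 8, as was their control with the empty expression vector, whose genotype label is wild type. Cells with a short hairpin RNA against Setdb1, a histone H3 lysine methyltransferase, were collected on day 7, as was a control with the empty knockdown vector, also labelled wild type. The Myod1 and Pparg groups share their control library, and the labels state neither the promoters of the vectors nor whether the cells were clones.

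S100 proteins form dimers, and most bind calcium through a pair of EF-hand loops, one of a form peculiar to the family. Calcium exposes a surface with which they hold partner proteins such as annexins, cytoskeletal proteins and p53, and some members also act outside the cell through the receptor Ager. S100b is used as a marker of melanocytes, melanoma and glia, S100a1 is best known from heart and skeletal muscle, and S100a4 and S100a6 are studied in tumour spread and growth.

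In short, S100a1 and S100a13, neighbours with facing start sites, were more than 2-fold higher in all 3 treated libraries than in their controls. S100a4, S100a6 and S100b passed 2-fold higher with Setdb1 knockdown, and of these the calls on S100a6 and S100b ended against the other control. S100a6 and S100a10 were lower with Myod1 expression against either control. S100a6 also differed more than 2-fold between the control libraries themselves.

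Promoter regions of 5 members called higher with Setdb1 knockdown are shown first, taken from RefSeq (build GRCm38.p6), where 8 of the 9 members, all but S100a10, matched 12 windows. S100a1 (ENSMUSG00000044080, chromosome 3, 90511034 to 90514392, minus strand) and S100a13 (ENSMUSG00000042312, chromosome 3, 90514435 to 90524581, plus strand) lie head to head in the deposited table with 42 bases between them. By the RefSeq start sites 104 bases separate the first base of S100a1 from that of S100a13. That stretch, chr3:90514331-90514434 on the plus strand, is printed because both genes start from it and both moved together, and capitals mark the 42 bases between the gene bodies of the deposited table.
S100a1 to S100a13: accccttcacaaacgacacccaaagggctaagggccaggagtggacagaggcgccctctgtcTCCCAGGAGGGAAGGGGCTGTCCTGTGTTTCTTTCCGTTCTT
The 250 bases before the starts of S100a6 (chr3:90612644-90612893, plus strand), S100a4 (chr3:90603520-90603769, plus strand) and S100b (chr10:76253586-76253835, plus strand) are printed as the promoters of the genes that were higher with Setdb1 knockdown. Capitals mark the E-box CANNTG in S100a6, the TATA box TATAAA followed by the nuclear receptor element AGGTCA in S100a4, and CCAAT and CANNTG in S100b.
S100a6: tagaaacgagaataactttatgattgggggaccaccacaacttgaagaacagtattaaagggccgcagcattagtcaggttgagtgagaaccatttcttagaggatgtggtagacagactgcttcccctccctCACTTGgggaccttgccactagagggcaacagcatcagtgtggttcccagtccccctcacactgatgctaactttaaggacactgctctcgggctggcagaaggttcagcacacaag
S100a4: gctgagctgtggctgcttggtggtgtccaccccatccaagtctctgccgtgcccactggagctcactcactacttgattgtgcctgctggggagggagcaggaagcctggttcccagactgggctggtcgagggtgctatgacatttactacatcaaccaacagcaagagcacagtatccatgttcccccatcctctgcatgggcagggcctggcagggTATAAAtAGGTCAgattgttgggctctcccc
S100b: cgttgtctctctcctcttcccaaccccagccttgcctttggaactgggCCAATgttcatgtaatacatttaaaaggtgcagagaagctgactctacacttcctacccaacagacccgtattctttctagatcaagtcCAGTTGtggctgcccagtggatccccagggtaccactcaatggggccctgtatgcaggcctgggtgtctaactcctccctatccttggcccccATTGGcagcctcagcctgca

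Motifs were searched on both strands as spelled. The E-box was searched as CANNTG and, in the form that myogenic factors prefer, as CAGCTG, which the former includes. The nuclear receptor element was AGGTCA, and the PPAR element was this element repeated with 1 free base between. The TATA box was searched as TATAAA, the GC box as GGGCGG, the AP-1 site as TGANTCA and the CCAAT box by its own letters. The 104 bases between S100a1 and S100a13 held no match to any of them, and among the same 104 bases before 32851 RefSeq starts 35.8% held CANNTG and 25.1% held GGGCGG. Farther out, the 250 bases before S100a13 held 1 CANNTG and those before S100a1 none. The 104-base stretch had a GC content of 58.7% and 3 CG pairs. In the 250 bases before the start, S100a6 had 1 CANNTG and 1 CCAAT (left in lower case), S100b had 1 CANNTG and 2 CCAAT, and S100a4 had 1 TATAAA and 1 AGGTCA but no CANNTG. Of all such 250-base windows 66.2% held CANNTG, 33.8% CCAAT, 14.0% AGGTCA, 12.4% TATAAA and 0.0335% the PPAR element, which none of the 8 members with a window had. A match is a description of letters and not of a bound factor.

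The depth was 16214802 to 18300670 reads assigned to genes per library, recovered from the deposited FPKM, which are fragments divided by gene length in kilobases and by a factor of each library. Myod1, Pparg and Setdb1 followed the labels: Myod1 reached 260 FPKM and Pparg 44.4 FPKM in their own libraries with 0 reads in the other 4, and Setdb1 had 0.867 FPKM in the knockdown against 9.82 in its control. Of the 12 melanocyte markers, Sox10, Tyrp1, Pmel and Mlana had from 184.7 FPKM (Sox10 with Pparg) upward in each library. Mitf had 8.03 to 41.6 FPKM, Tyr 24.5 to 76.9 and Gpr143 10.1 to 29.7, while Ednrb and Kit stayed under 1 FPKM. The summed FPKM of the 12 melanocyte markers was 3611 with Myod1 and 2387 with Pparg, against 8090 in their control, and 11035 with Setdb1 knockdown against 8829. Of the 10 compared, 5 were lower with Myod1 (median log2 ratio -1.13) and 8 with Pparg (-1.33), where 7.55% and 2.3% of all genes were at least 2-fold lower. With Setdb1 knockdown 1, Ptgds, was higher (1920 against 256 FPKM) and 2, Mitf (-1.54) and Slc45a2 (-1.49), were lower, with a median of -0.21, so the larger sum there did not stand for most of the list. Of all genes 9.34% were at least 2-fold higher and 10.3% lower in that comparison. The 8 skeletal muscle markers summed to 30647 FPKM with Myod1 and 10.9 to 32.5 in the other libraries, and the 7 fat cell markers to 320 FPKM with Pparg and 0.726 to 2.72 in the others. The part of these shifts in the S100 values was not tested. Markers of other cell types were low: sums over the list were 0.730 to 2.24 FPKM for 7 leukocyte genes, 0.526 to 2.85 for 7 fibroblast genes, 0.0192 to 0.596 for 5 endothelial genes and 0 to 0.0738 for 6 keratinocyte genes. Cd3e, Dcn, Lum, Kdr and Krt14 were at 0 reads in all 5 libraries. The 6 Schwann cell and glial genes summed to 16.9 to 36.6 FPKM, mostly from Pmp22 and Mbp, with Sox2 at 0 reads.

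Ratios below are log2((FPKM + 1)/(FPKM + 1)) of a treated library against its control. A gene was called higher or lower at 2-fold, that is 1 on the log2 scale, among the 12842 genes with at least 1 FPKM in at least 1 library. Of the 9 members 8 passed this filter, all but S100a3. Plain folds are ratios of FPKM, and their 95% intervals come from the read counts. Those intervals, and the 95% Wilson intervals on levels, cover counting error only. In bulk RNA fewer cells of a kind and less RNA per cell cannot be told apart.

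**Figure D1:**
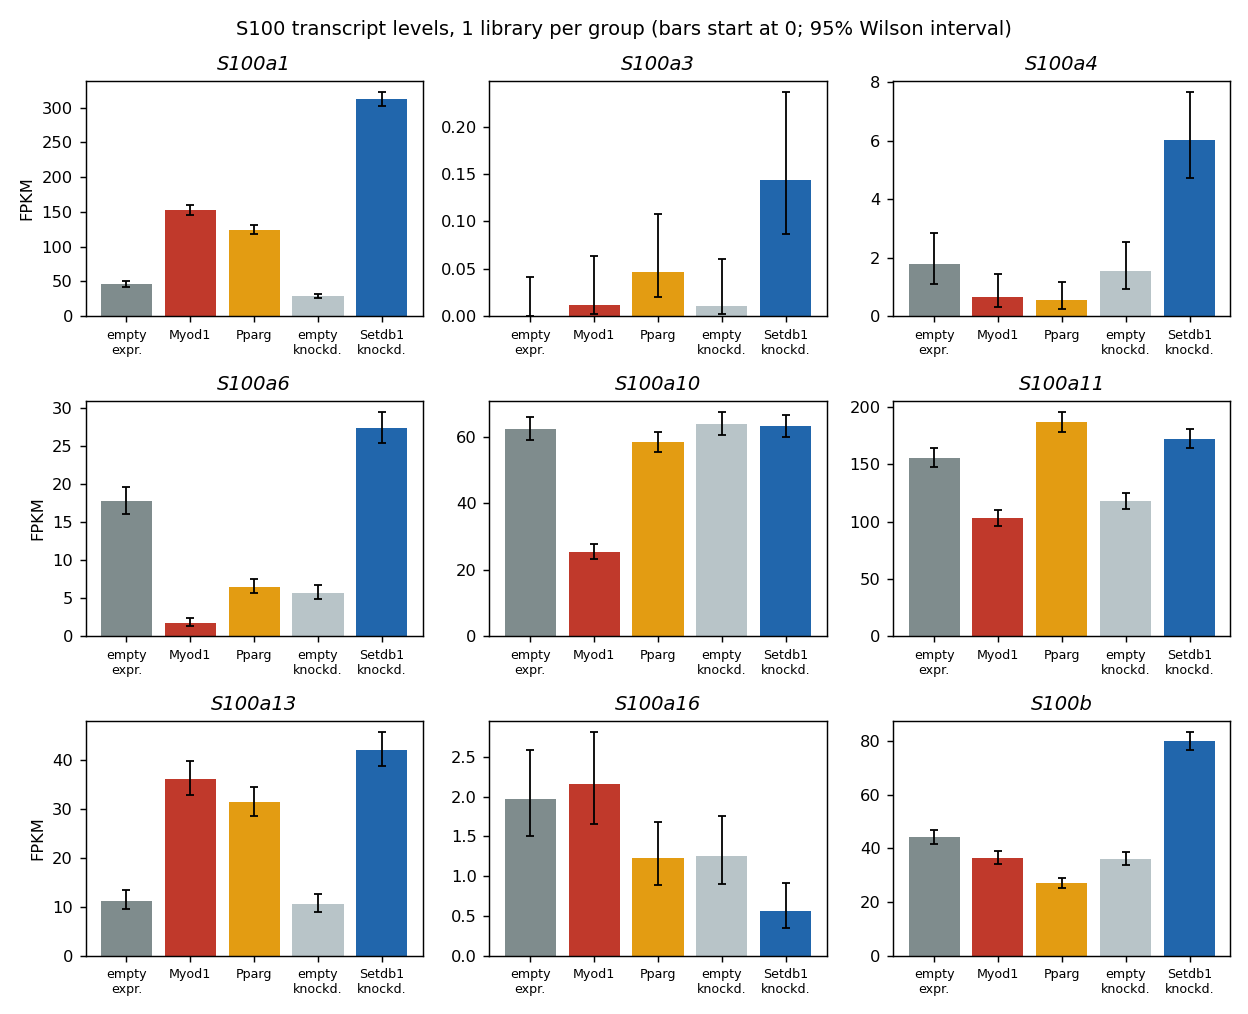
FPKM of each of the 9 S100 genes (vertical axes, starting at 0 and scaled per gene) in the 5 libraries, 1 bar per library with its 95% Wilson counting interval. S100a1 and S100a13 are higher in all 3 treated libraries than in both controls, and S100a10 is low with Myod1 alone.

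S100a1, which in muscle binds the ryanodine receptor, the calcium pump and titin, had the largest single log2 ratio of the members, with Setdb1 knockdown. It had 46.0 FPKM in the empty expression vector control, 152 with Myod1 and 125 with Pparg, and it went from 28.9 in the empty knockdown vector control to 313 with Setdb1 knockdown. All 3 treated libraries stood above both controls, and no counting intervals overlapped between neighbouring libraries in this order. The folds were 3.31 (interval 3.0 to 3.65) with Myod1, 2.71 (2.46 to 2.99) with Pparg and 10.8 (9.68 to 12.1) with Setdb1 knockdown. The control libraries differed as well, so against the other control the folds became 5.27, 4.32 and 6.80. With Setdb1 knockdown only 7 of the 12842 genes had a higher log2 ratio than the 3.39 of S100a1.

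S100a13, a protein that helps export the growth factor Fgf1 by a route outside the classical secretory pathway, was higher in the same libraries. It had 11.2 FPKM in the empty expression vector control, 36.1 with Myod1, 31.3 with Pparg, 10.6 in the empty knockdown vector control and 42.0 with Setdb1 knockdown. The treated libraries lay close together and the controls closer still, with counting intervals that overlapped between neighbours inside each set and not between the sets. The folds were 3.22 (2.64 to 3.92), 2.79 (2.30 to 3.39) and 3.96 (3.26 to 4.80), on the log2 scale 1.60, 1.40 and 1.89. These changed little with the other control, to 1.68, 1.47 and 1.82.

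The facing genes were not locked to each other in level. Per length, S100a1 exceeded S100a13 by 4.10-fold in the empty expression vector control, 4.21-fold with Myod1 and 3.98-fold with Pparg. The ratio was 2.72 in the empty knockdown vector control and 7.44 with Setdb1 knockdown. Against the own control the log2 ratios of S100a1 and S100a13 were thus near each other with Myod1 and Pparg and apart with Setdb1 knockdown. Against the other control S100a1 had the larger ratio with Myod1 (2.36 against 1.68) and Pparg (2.07 against 1.47) as well. Their annotated exons did not overlap each other or another gene in GENCODE M21.

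For the same arrangement elsewhere, 522 pairs of protein-coding genes in the table had facing starts within 1 kb and both genes compared. Both genes were called higher in 9 pairs with Myod1, 2 with Pparg and 9 with Setdb1 knockdown, and in none between the controls. Both were called lower in 2, 0 and 7 pairs, they were called in opposite directions in 4, 0 and 3, and 1 gene of the pair alone was called in 130, 19 and 152. S100a1 and S100a13 were the 1 pair called higher in all 3 comparisons. The pair was picked with these values known, so nothing is read from its standing among the 522. Single genes called higher in all 3 comparisons made up 0.413% of those compared. The Myod1 and Pparg values share a control library and are not independent.

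S100a6, or calcyclin, which binds the ubiquitin-ligase adaptor Cacybp and annexins, had the largest ratio of highest to lowest FPKM, 15.9-fold, of the 8 members compared. Its FPKM was 17.7 (16.1 to 19.6) in the empty expression vector control, 1.72 (1.25 to 2.37) with Myod1 and 6.49 (5.58 to 7.54) with Pparg. It was 5.69 (4.79 to 6.75) in the empty knockdown vector control and 27.3 (25.4 to 29.4) with Setdb1 knockdown. The controls differed 3.12-fold, and the Pparg library overlapped the empty knockdown vector control within counting error. Against their own controls S100a6 was 10.3-fold lower with Myod1, 2.73-fold lower with Pparg and 4.80-fold higher (3.98 to 5.79) with Setdb1 knockdown. Against the other control the fall with Myod1 was 3.30-fold, the Pparg log2 ratio was 0.16 in place of -1.32, and the Setdb1 log2 ratio was 0.60 in place of 2.08. The Myod1 library was thus lowest under either control, and the other calls on S100a6 depended on the control.

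S100a4, known as metastasin and a partner of non-muscle myosin heavy chain Myh9, was expressed at a low level. It had 1.78 FPKM (17 reads) in the empty expression vector control, 0.653 (6 reads) with Myod1, 0.536 (6 reads) with Pparg, 1.54 (15 reads) in the empty knockdown vector control and 6.01 (65 reads) with Setdb1 knockdown. Only the knockdown library stood outside the counting intervals of the next library. Its fold was 3.92 (2.23 to 6.86), and 3.38 against the other control. The folds with Myod1 and Pparg, each on 6 reads, were 0.367 (0.145 to 0.930) and 0.301 (0.119 to 0.763). The log2 ratios of -0.75 with Myod1 and -0.86 with Pparg were under the limit with the pseudocount of 1 and past it, at -1.32 and -1.57, with a pseudocount of 0.1. Of the 584 exon bases of S100a4, 302 are also annotated to Gm42674 on the same strand, a gene listed at 0 reads in all 5 libraries, and the treatment of reads that fit both genes is not given in the sources used here.

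S100b, the member best known from glia and melanoma, had 44.1 FPKM in the empty expression vector control, 36.3 with Myod1, 27.1 with Pparg, 36.1 in the empty knockdown vector control and 80.0 with Setdb1 knockdown. The knockdown library was highest and the Pparg library lowest, while the Myod1 library and the empty knockdown vector control overlapped. The rise with knockdown was 2.21-fold (2.05 to 2.39), or 1.12 on the log2 scale, and it was under the limit at 0.84 against the other control. With Pparg the log2 ratio was -0.69 and with Myod1 -0.27. S100b (ENSMUSG00000033208) is the member outside chromosome 3, on chromosome 10 from 76253853 to 76261159.

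S100a10, or p11, has lost calcium binding and forms a complex with annexin A2 at the membrane. It had 62.4 FPKM in the empty expression vector control, 58.4 with Pparg, 63.9 in the empty knockdown vector control, 63.1 with Setdb1 knockdown and 25.2 with Myod1. The first 4 libraries overlapped their neighbours within counting error and the Myod1 library lay apart. The fall with Myod1 was 2.47-fold, on the log2 scale -1.27, and -1.31 against the other control. With Pparg the fold was 0.935 (0.866 to 1.01) and with Setdb1 knockdown 0.988 (0.916 to 1.07).

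S100a11, a partner of annexin A1, had the highest mean level, 147 FPKM over the 5 libraries, and passed the limit in no comparison. Its FPKM was 156 in the empty expression vector control, 103 with Myod1, 187 with Pparg, 118 in the empty knockdown vector control and 173 with Setdb1 knockdown. The Myod1 library was lowest, and the Pparg and knockdown libraries overlapped. Its log2 ratios were -0.59, 0.26 and 0.55, next to -0.40 between the controls, and a processed pseudogene copy, S100a11-ps, was listed at 0 in each library.

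S100a16 and S100a3 were near the floor. S100a16 had 1.97 FPKM (52 reads) in the empty expression vector control, 2.16 (55 reads) with Myod1, 1.23 (38 reads) with Pparg, 1.26 (34 reads) in the empty knockdown vector control and 0.568 (17 reads) with Setdb1 knockdown. Every library overlapped the next within counting error, and the log2 ratios of 0.09, -0.42 and -0.53 were all under the limit. The plain folds were 1.10 (0.752 to 1.61) with Myod1, 0.623 (0.410 to 0.946) with Pparg and 0.452 (0.252 to 0.809) with Setdb1 knockdown. Against the other control the log2 ratios were 0.49, -0.02 and -0.92. S100a3, known from the hair cuticle, had 0 reads in the empty expression vector control, 1 with Myod1, 5 with Pparg, 1 in the empty knockdown vector control and 15 with Setdb1 knockdown. At 15 reads against 1 the ratio with knockdown was 13.6, with an interval from 1.79 to 103, and the level there was 0.143 FPKM.

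**Figure D2:**
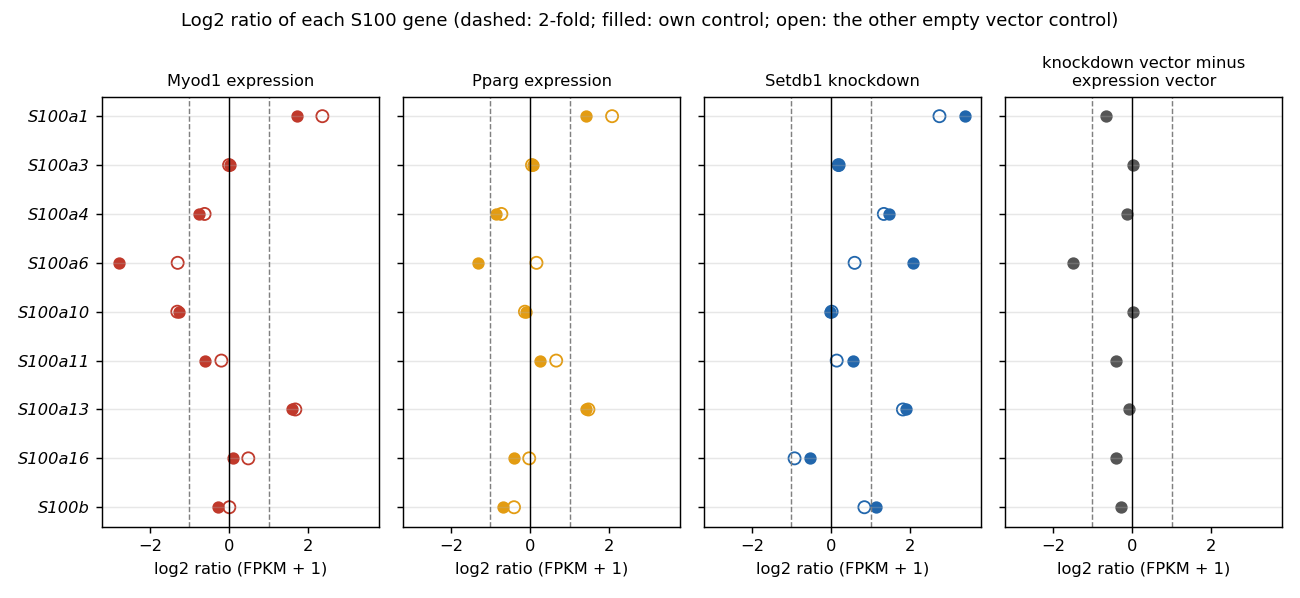
Log2 ratio of (FPKM + 1) for each S100 gene (horizontal axis) in the 3 comparisons and between the controls. Filled points use the library's own control and open points the other empty vector control, and dashed lines mark 2-fold. S100a6 moves most with the choice of control, from -1.32 to 0.16 with Pparg, and S100a13 and S100a10 hardly move.

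Counted over the 8 members compared, Myod1 expression gave 2 higher (S100a1 and S100a13) and 2 lower (S100a6 and S100a10), where 14.0% of all genes compared were higher and 7.55% lower. With each library divided by its FPKM sum these shares became 9.63% and 14.8%, and the same 4 members were called. Pparg expression gave 2 higher (S100a1 and S100a13) and 1 lower (S100a6), against 4.22% and 2.3% of all genes. Setdb1 knockdown gave 5 higher (S100a1, S100a4, S100a6, S100a13 and S100b) and 0 lower, against 9.34% and 10.3%. Between the controls 0 members were higher and 1, S100a6, was lower in the empty knockdown vector control, against 1.23% and 1.44%. Since the members were chosen with these levels known, nothing is read from their shares.

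Held to 2-fold against both control libraries, the counts were 2 higher and 2 lower with Myod1 (11.9% and 4.42% of all genes), 2 higher and 0 lower with Pparg (3.34% and 0.849%), and 3 higher and 0 lower with Setdb1 knockdown (5.8% and 7.56%). The calls that ended were S100a6 with Pparg, and S100a6 and S100b with Setdb1 knockdown. The median log2 ratio of the 8 members was -0.43 with Myod1, -0.26 with Pparg and 1.30 with knockdown of Setdb1, while the controls differed by -0.34, next to medians of all genes between -0.02 and 0.02. With the other control the members' medians were -0.09, 0.07 and 0.72.

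The sum of the 9 members was 341 FPKM in the empty expression vector control, 357 with Myod1, 437 with Pparg, 266 in the empty knockdown vector control and 704 with Setdb1 knockdown. The knockdown library was 2.65-fold above its own control and 2.06-fold above the other. In reads the family took 0.0282%, 0.0236%, 0.0358%, 0.0237% and 0.0610% of these libraries. The sum with Myod1 was near that of its control as deposited, and lower as a share of reads (0.0236% against 0.0282%). With each library divided by its FPKM sum, the Myod1 sum was 282 FPKM against 354. The makeup differed: S100a1 went from 13.5% to 42.6% of the summed FPKM, and S100a11 from 45.7% to 28.8%. S100a11 was the most abundant member per length in both controls and with Pparg, and S100a1 was with Myod1 and with Setdb1 knockdown. Without S100a1 the sums were 295, 205, 312, 237 and 391.7 FPKM, so the Myod1 library was then below both controls.

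**Figure D3:**
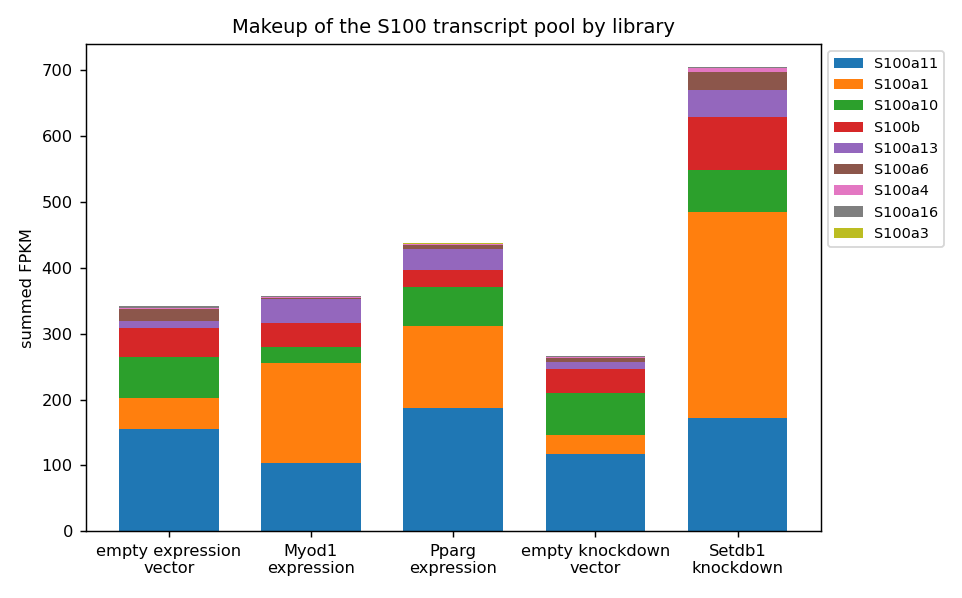
Summed FPKM of the 9 S100 genes (vertical axis, from 0) in the 5 libraries, divided by gene. The sum runs from 266 FPKM in the empty knockdown vector control to 704 with Setdb1 knockdown, and the S100a1 segment is tallest in the knockdown library at 44.4% of the sum.

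On chromosome 3 the S100 genes span 3.04 Mb, from 90511034 to 93555080 by their lower ends (build GRCm38, per the submitters' processing notes), and 8 of the 14 there are members. S100a1, S100a13, S100a16, S100a3, S100a4 and S100a6 lie within the first part, while S100a11 and S100a10 lie at the far end with 28792 bases between them. The span was otherwise almost without reads: of 107 other genes with a symbol in the span, 99 had 0 reads in all 5 libraries and 2, Gm9774 and Gm4202, were compared. Gm4202, a processed pseudogene, was lower with Setdb1 knockdown at a log2 ratio of -2.54, and neither was called otherwise. With Setdb1 knockdown S100a1, S100a13, S100a4 and S100a6, 4 of the 5 compared in the first part, were called higher, where 9.34% of all genes were, and the S100a6 call ended against the other control (0.60). Because the members were chosen with these levels known, nothing is read from this count or from where the genes lie. S100a11 (0.55) and S100a10 (-0.02) at the far end were not called. S100a16, whose lower end is 26.2 kb from that of S100a1, was under the limit in all 3 comparisons, and S100a6 and S100a4 had negative log2 ratios with Myod1 and Pparg where S100a1 and S100a13 were higher. Setdb1 itself lies on the same chromosome, with its lower end 1.76 Mb beyond the end of S100a10.

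**Figure D4:**
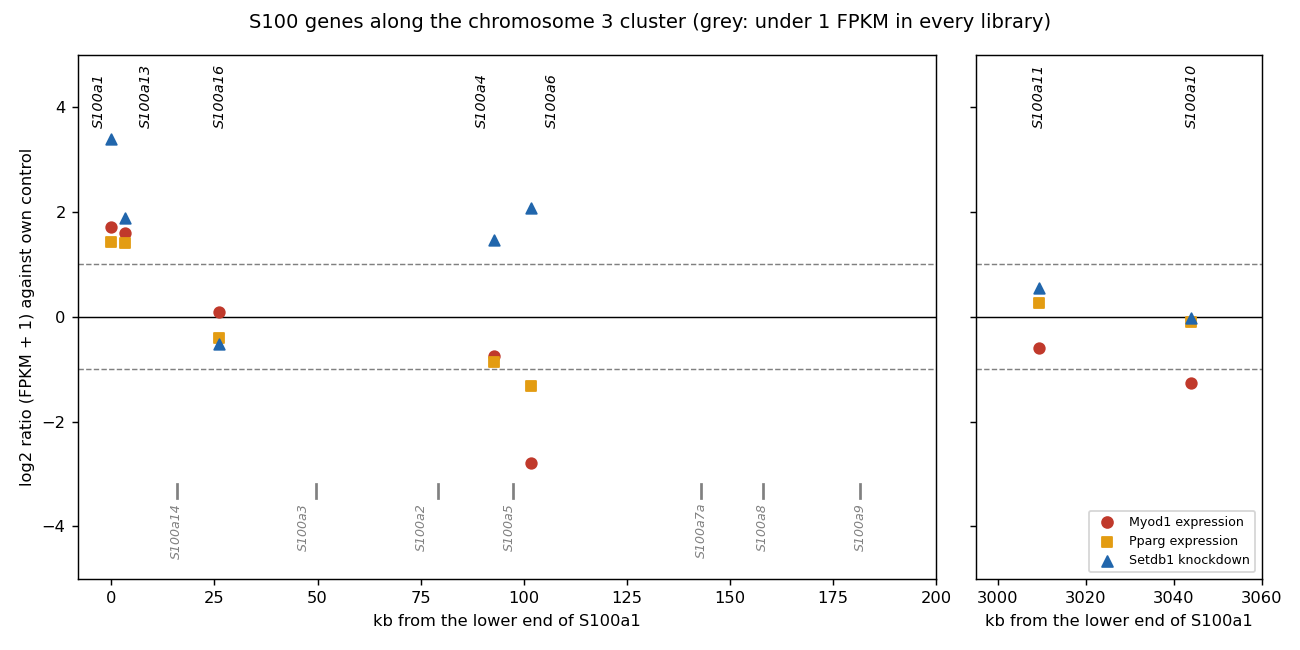
Log2 ratio of (FPKM + 1) against the own control (vertical axis) of the S100 genes by distance in kb from the lower end of S100a1 (horizontal axis, cut between both panels), with circles for Myod1, squares for Pparg and triangles for Setdb1 knockdown. Grey ticks mark S100 genes under 1 FPKM in each library, and the triangles of S100a1, S100a13, S100a4 and S100a6 all lie above the 2-fold line.

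The other 8 S100 genes of the table were at or near 0. S100g, S100a2, S100a5, S100a9 and S100z had 0 reads in each library. S100a8, which with S100a9 forms the calprotectin of neutrophils and monocytes, had 1 read with Pparg and 3 in the empty knockdown vector control, S100a7a had 4 with Setdb1 knockdown, and S100a14 had 1 with Pparg and 2 with Setdb1 knockdown. The highest value among the 8 was 0.259 FPKM. A count of 0 allows up to 3 reads, for S100a9 in the Myod1 library 0.366 FPKM.

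Binding partners were then set beside the members. Of 24 partners, targets and receptors 21 were compared, and 7 were higher and 5 lower with Myod1, 1 higher and 0 lower with Pparg, 0 higher and 3 lower when Setdb1 was knocked down, and none past the limit between the controls. The medians were -0.04, -0.01 and 0.01. For reading these and the next lists, the shares of all genes called higher and lower were 14.0% and 7.55% with Myod1, 4.22% and 2.3% with Pparg, and 9.34% and 10.3% with Setdb1 knockdown. The muscle partners of S100a1 were at or near 0 outside the Myod1 library: Ryr1, the ryanodine receptor of skeletal muscle, had 49.1 FPKM with Myod1 and 0.247 or less elsewhere, the calcium pump Atp2a1 had 133 against 0.249 or less, and Ttn had 8.44 against 0.0141 or less. S100a1 was highest in the knockdown library, where these partners were near 0.

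Anxa2, the partner of S100a10, had 149 FPKM in the empty expression vector control, 32.1 with Myod1, 196 with Pparg, 77.1 in the empty knockdown vector control and 90.5 with Setdb1 knockdown. It was lower with Myod1, as S100a10 was, at a log2 ratio of -2.18 and at -1.24 against the other control. Unlike S100a10, it differed by -0.94 between the controls. Anxa1, the partner of S100a11, was lower with Myod1 as well (31.7 against 67.7 FPKM, log2 ratio -1.07), and Ahnak, a large scaffold bound by S100a10 and Anxa2, was higher (8.05 against 3.45 FPKM, 1.02).

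Fgf1, the growth factor carried by S100a13, had 0.500 FPKM in the empty expression vector control, 2.61 with Myod1, 3.67 with Pparg, 0.965 in the empty knockdown vector control and 2.55 with Setdb1 knockdown. It was higher with Myod1 (1.27) and Pparg (1.64) and under the limit with Setdb1 knockdown (0.85), which reached 1.24 against the other control, while the Myod1 value was then 0.88. All 3 treated libraries lay above both controls, as those of S100a13 did. Cacybp, the partner of S100a6, moved the other way from it in the knockdown, at 6.85 FPKM against 30.3 (log2 ratio -1.99). Against the other control Cacybp had -1.58 there and S100a6 0.60. With Myod1 and Pparg Cacybp had -0.32 and -0.61, below 0 as S100a6 was (-2.78 and -1.32). Myh9, the partner of S100a4, had 20.7 FPKM with Setdb1 knockdown against 52.6 in its control (-1.30). With Myod1 the log2 ratio of Myh9 was -1.28, and -0.41 against the other control, where S100a4 had -0.75. With Pparg Myh9 had -0.29 and S100a4 -0.86, and between the controls Myh9 differed by -0.87. Trp53 was under the limit in each comparison, and the receptor Ager stayed under 1 FPKM, with 0.454 as its highest value.

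Of 12 annexins 8 were compared, with 2 higher and 3 lower with Myod1, none past the limit with Pparg, and 1 lower with Setdb1 knockdown, beside the shares of all genes given above. Their summed FPKM was 392.1 with Myod1 against 661 in its control. Of 25 other EF-hand genes 21 were compared, with 4 higher and 1 lower with Myod1, 3 higher and 0 lower with Pparg, and 2 higher and 3 lower when Setdb1 was knocked down. The extremes were Myl9 (5.52) and Efhd2 (2.54) against Sri (-1.23) with Myod1, and Myl9 (1.62) and Chp1 (1.53) against Cetn3 (-0.55) and Efhd2 (-0.53) with Pparg. With Setdb1 knockdown they were Cib2 (1.86) and Capn1 (1.58) against Cetn2 (-2.98) and the calcineurin subunit Ppp3r1 (-2.23). With all genes at 14.0% higher and 7.55% lower with Myod1, 4.22% and 2.3% with Pparg, and 9.34% and 10.3% with knockdown, nothing particular is read from these counts.

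Genes with the most similar profiles are given for the 4 members of widest log2 range, by Euclidean distance over the 5 libraries between log2(FPKM + 1) profiles centred on their own means. For S100a1 they were Ctsh (0.48), Dyrk1b (0.60) and Hist2h3c2 (0.63). For S100a13 they were Junb (0.31), Zfp36 (0.35) and Selenop (0.41). S100a6 had Ecm1 (0.89), Slc22a18 (1.0) and Gm16104 (1.05), and S100a4 had 2610035D17Rik (0.13), Mir212 (0.23) and Apoe (0.34). Junb, a subunit of AP-1, had 11.01 FPKM in the empty expression vector control, 40.2 with Myod1, 28.2 with Pparg, 9.17 in the empty knockdown vector control and 35.8 with Setdb1 knockdown, close to S100a13 in each library. Among the members themselves the closest profiles were those of S100a3 and S100a11 (0.66), S100a4 and S100b (0.72) and S100a10 and S100a11 (0.83), while S100a1 and S100a13 were 1.08 apart and S100a1 and S100a6 3.48. Profiles of low genes are flattened by the pseudocount, and each distance rests on 5 libraries.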

How the data were processed

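RNA sequencing of 5 B16F10 libraries was deposited by the authors as 1 table of FPKM values. The submitters' processing notes name CASAVA, HISAT2, featureCounts 1.5.0-p3 and GRCm38. The handling of strand and shared reads and the normalization are not given in the sources used here. FPKM times gene length was, for 100.0% of the values above 0, a whole multiple (within 0.01 reads) of what 1 read is worth in that library, which gave the reads. Ratios used a pseudocount of 1 FPKM, a minimum of 1 FPKM in 1 library and a 2-fold limit. With 1 library per group no test was possible. The members and gene lists were chosen with earlier results of these data known. Named genes are the members, other S100 genes, 8 fixed partners, the extreme EF-hand genes of a comparison and the nearest profiles. Ryr1, Atp2a1, Ttn and the annexin sum were named after their values were seen, as were pairs with facing starts. Some genes that this rule or a marker list names are not reported here. The ratio script was tested on simulated data. Analyses ran in Python 3.11.15 with pandas 2.3.3.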

Additional observations from a re-analysis of the deposited data

How the results depend on the processing

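A 4-fold limit left 1 member called with Myod1, 0 with Pparg, 2 with Setdb1 knockdown and 0 between the controls, where 4.35% of all genes were higher and 0.382% lower with Myod1, 0.709% and 0.179% with Pparg, 0.919% and 1.5% with Setdb1 knockdown, and 0.14% each way between the controls. With the other control library 3 members were called with Setdb1 knockdown (8.72% of all genes higher and 11% lower), and S100a6 with Pparg turned from lower to 0.16 on the log2 scale. A pseudocount of 0.1, no filter, a mean of at least 1 FPKM, the column sum, the 75th percentile, centring on the median and a 3-read floor left each count of members called in either direction within 1.5 times the reported one, as did removal of GC and length trends, chosen after seeing the data. By direction, the pseudocount of 0.1 and the 3-read floor gave 2 lower in place of 1 with Pparg and 1 in place of 0 with Setdb1 knockdown, while the share of all genes lower became 4.66% and 4.11% with Pparg and 16.3% under both with Setdb1 knockdown. S100a4 passed 2-fold lower with Myod1 and Pparg, and S100a16 with Setdb1 knockdown, with a pseudocount of 0.1 or the 3-read floor, and S100a4 with Myod1 also without the GC and length trends (-1.05). Under the settings other than the filters, which cannot move a single ratio, 182 of 216 values of single members moved by no more than counting error and 34 by more. The sign turned in 7, of which 1, S100a6 with Pparg, had been called; the others (S100a10, S100a16 and S100b) were at most 0.274 in size as reported. The column sum and the 75th percentile gave summed levels of 282 and 323 FPKM with Myod1, 488 and 454 with Pparg, 354 and 351 in its control, and 286 and 279 in the empty knockdown vector control. With Setdb1 knockdown they were 716 and 693. Either scaling put the Myod1 sum below that of its control, where the deposited FPKM put it above. The column sum moved the median of all genes with Myod1 to -0.26 and the 75th percentile to -0.11, and the 4 Myod1 calls held under both. As percent of reads the family took 0.0236 with Myod1, 0.0358 with Pparg, 0.0282 in the empty expression vector control, 0.0610 with Setdb1 knockdown and 0.0237 in the empty knockdown vector control. No paired analysis was possible because each group has 1 library. S100a3, S100a4 and S100a16 had under 100 reads in each library, and S100a6 had 37 in the Myod1 library, which limits their precision.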
